A study of Rattus norvegicus with 10 samples.

Results

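MicroRNA levels of the miR-181 family were described in tissue punches of the rat dorsal vagal complex, a part of the hindbrain that houses motor neurons of the vagus nerve. Members were taken by name as every microRNA probe of the count table called miR-181, with any letter or arm, which gave 3 of 420 probes: miR-181a, miR-181c, and 1 joint probe for miR-181b and miR-181d. The animals were 10 male Sprague-Dawley rats with 1 bulk punch sample each, cut from 200 um brainstem sections, and their exact age was not given in the sources used here. RIPC+LAD rats (n = 2) had remote ischemic preconditioning (RIPC) and, 2 h later, a tie placed on the left anterior descending artery of the heart (LAD). LAD rats (n = 3) had the ligation alone, RIPC rats (n = 2) had the preconditioning alone, and AMC rats (n = 3) were age-matched controls. In both ligated groups the brainstem was taken at 24 h from the ligation. The labels name no sham group, so in every comparison the treatment and the anesthesia and surgery that came with it cannot be told apart. In a bulk punch, fewer cells of a type and less microRNA per cell cannot be told apart either.

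MicroRNAs are short RNAs that lower the output of the mRNAs they pair with, and pairing rests mostly on the seed, bases 2 to 8 from the 5′ end. The miR-181 family is best known from mouse lymphocytes, where miR-181a sets how sensitively T cells respond to antigen by repressing phosphatases. In the rodent brain the family is found in neurons and astrocytes, and miR-181a has been studied in stroke models as a repressor of the chaperone Hspa5 (GRP78) and of anti-apoptotic Bcl2 family members.

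The 4 mature 5p microRNAs behind the 3 probes are shown because 2 of them share 1 probe and the others differ by few bases. Sequences are RefSeq's for build GRCr8, 5′ to 3′, with the seed in capitals.
miR-181a-5p: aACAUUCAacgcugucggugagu
miR-181b-5p: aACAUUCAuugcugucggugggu
miR-181c-5p: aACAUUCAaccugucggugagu
miR-181d-5p: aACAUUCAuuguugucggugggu
All 4 shared the seed, and 4 of 693 mature rat microRNAs known to RefSeq held it, each of them of this family. Counting positions from 1 at the 5′ end of the first named, miR-181a-5p and miR-181b-5p differed by A9U, C10U and A21G, and miR-181b-5p and miR-181d-5p by C12U alone. MiR-181a-5p had 23 bases and miR-181c-5p 22, and they differed by the loss of 1 base, G11 of miR-181a-5p. How much of one member is counted by the probe of another was not tested, so each probe's count is uncertain in that respect. No 3p arm of the family had a probe, so only the 5p side was measured.

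The family has 6 genes in 3 pairs on the rat genome, all on the plus strand in GRCr8. Mir181a-1 and Mir181b1 lie on chromosome 13 with 61 bases between their hairpins, and the mature forms are at chr13:52037081-52037103 and chr13:52037263-52037285. Mir181a2 and Mir181b2 lie on chromosome 3 with 986 bases between them, with mature miR-181a-5p at chr3:43025601-43025623 and the miR-181b-5p sequence found inside the Mir181b2 hairpin at chr3:43026680-43026702. Mir181c and Mir181d lie on chromosome 19 with 77 bases between them, with mature forms at chr19:40888314-40888335 and chr19:40888484-40888506. The miR-181a probe therefore sums the products of 2 loci, and the joint probe those of 3.

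Total microRNA counts were 80696 and 93246 in the RIPC+LAD samples, 28485 to 102329 in LAD, 73293 and 90086 in RIPC, and 90348 to 102824 in AMC. The synthetic positive control POS_A, added to each reaction, split the samples into a low set of 5 (both RIPC+LAD, LAD 2, LAD 3 and RIPC 1) and a high set of 5 (LAD 1, RIPC 2 and all AMC), so this split and the comparison of RIPC+LAD with AMC cannot be told apart. The ligation control, which monitors the tagging step of the assay, was 111% and 172% of POS_A in RIPC+LAD, against 24.3% to 54.4% in LAD, 38.4% and 79.2% in RIPC, and 38.9% to 85.6% in AMC. Both RIPC+LAD samples lay above all others, so a high ligation control and the RIPC+LAD treatment cannot be told apart. Animal numbers have a common prefix for the 2 RIPC+LAD rats, for LAD 2 with LAD 3, and for AMC 2 with AMC 3, and never across groups, so prefix and treatment cannot be told apart. As for the tissue, the motor neuron microRNA miR-218a was above background in 10 of 10 samples, and all 4 neuron markers (miR-124, miR-128, miR-137 and miR-129) and all 3 oligodendrocyte markers were as well. Of the microRNAs of the Hox clusters, which mark position along the hindbrain and spinal cord, miR-10a-5p was above background in 10 samples, miR-196c in 5, miR-196b in 2, and miR-10b and miR-196a in 1 each. Of the 4 microRNAs of muscle, which is not part of the brainstem, miR-133a was above background in 10 samples, miR-206 in 9, miR-1 in 5 and miR-133b in 0. A marker above background thus does not by itself identify the tissue.

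MiR-181a was among the most abundant microRNAs of the punches. Counts per 1000000 microRNA counts (CPM) put it at rank 3 to 10 of 420 probes in each sample, and at rank 7 by its median of 44437 CPM, with the neuron microRNA miR-124 at rank 2 and miR-9, abundant in neural cells, at rank 6. It held 3.12% to 5.77% of all microRNA counts of a sample. MiR-181c ranked 137 by its median of 233 CPM and the joint probe 222 with 76.4 CPM. Probes may capture their targets with unequal efficiency, so these ranks order the signals and not the molecules.

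**Figure D1:**
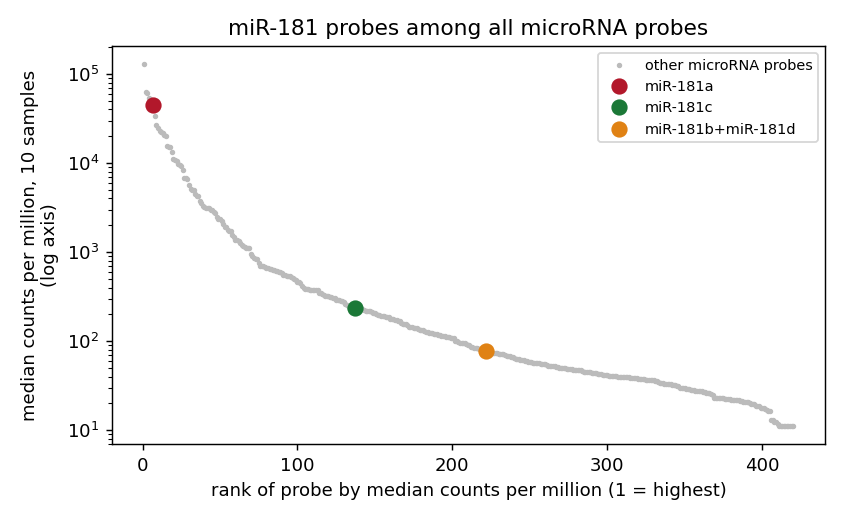
Median CPM over 10 samples (y axis, log scale) against the rank of each of 420 microRNA probes (x axis). The 3 miR-181 probes are coloured, with miR-181a at rank 7, miR-181c at rank 137 and the joint probe at rank 222.

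The miR-181a count was 4388 in RIPC+LAD 1 and 3453 in RIPC+LAD 2, which is 54377 and 37031 CPM. In LAD it was 3194, 2476 and 1513, or 31213, 57725 and 53116 CPM, in RIPC 3052 and 2972, or 33879 and 40550 CPM, and in AMC 4366, 3313 and 5475, or 48324, 33794 and 53246 CPM. On this plain CPM scale the ranges of all 4 groups overlapped, and the highest and the lowest sample of the study were both LAD rats. By group mean the order was LAD with 47351 ± 14165 CPM (SD, n = 3), RIPC+LAD with 45704 ± 12265 CPM (SD, n = 2), AMC with 45122 ± 10114 CPM (SD, n = 3) and RIPC with 37214 ± 4717 CPM (SD, n = 2), and no neighbours in this order differed by more than their spread. On the log2 scale of the tests below, LAD 1 stayed lowest at 14.97, and AMC 3 and RIPC+LAD 1 were highest at 15.84. There RIPC+LAD averaged 15.56 and LAD 15.45. RIPC+LAD was at 15.28 and 15.84 there, and RIPC at 15.04 and 15.18. These 2 groups of 2 samples overlapped on the plain CPM scale and not on this one. How many of all probes separate them was not counted, so no difference is read from it.

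MiR-181c was scarce but above the background threshold, the mean plus 2 SD of a sample's 8 negative controls, in 10 of 10 samples. Its count was 20 and 42 in RIPC+LAD, or 248 and 450 CPM, against 14, 12 and 8 in LAD, or 137, 280 and 281 CPM. It was 19 and 16 in RIPC, or 211 and 218 CPM, and 16, 16 and 33 in AMC, or 177, 163 and 321 CPM. RIPC+LAD 2 was the highest sample, with a 95% Poisson interval for its count of 30.3 to 56.8 against 12.2 to 30.9 for RIPC+LAD 1, and such intervals cover counting error only. The RIPC+LAD range overlapped those of LAD and AMC, and lay above the RIPC range by little. RIPC+LAD 1 had 20 counts and RIPC 1 had 19, with a Poisson interval of 11.4 to 29.7 for RIPC 1. How many of all probes separate these 2 groups of 2 samples was not counted, so no difference is read from it. Group means were 349 ± 143 CPM in RIPC+LAD (SD, n = 2), 232 ± 82.8 CPM in LAD (SD, n = 3), 215 ± 5.23 CPM in RIPC (SD, n = 2) and 220 ± 87.3 CPM in AMC (SD, n = 3).

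The joint probe of miR-181b and miR-181d stood at the background. Its counts were 12 and 6 in RIPC+LAD, 3, 4 and 4 in LAD, 2 and 8 in RIPC, and 8, 3 and 6 in AMC. Both RIPC+LAD samples passed their thresholds of 7.08 and 4.75 counts, and none of the other 8 samples passed theirs, which lay between 5.91 and 11.7 counts. The probe entered the tests through the RIPC+LAD group alone, so its fitted fold changes are not read as a difference, and their adjusted p-values by edgeR's quasi-likelihood test were 0.581 to 0.997 over the 6 contrasts. Over the 10 samples it gave 56 counts against 34202 for miR-181a, although each miR-181a gene lies beside a miR-181b gene. A weak probe and a low level of its targets cannot be told apart here.

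**Figure D2:**
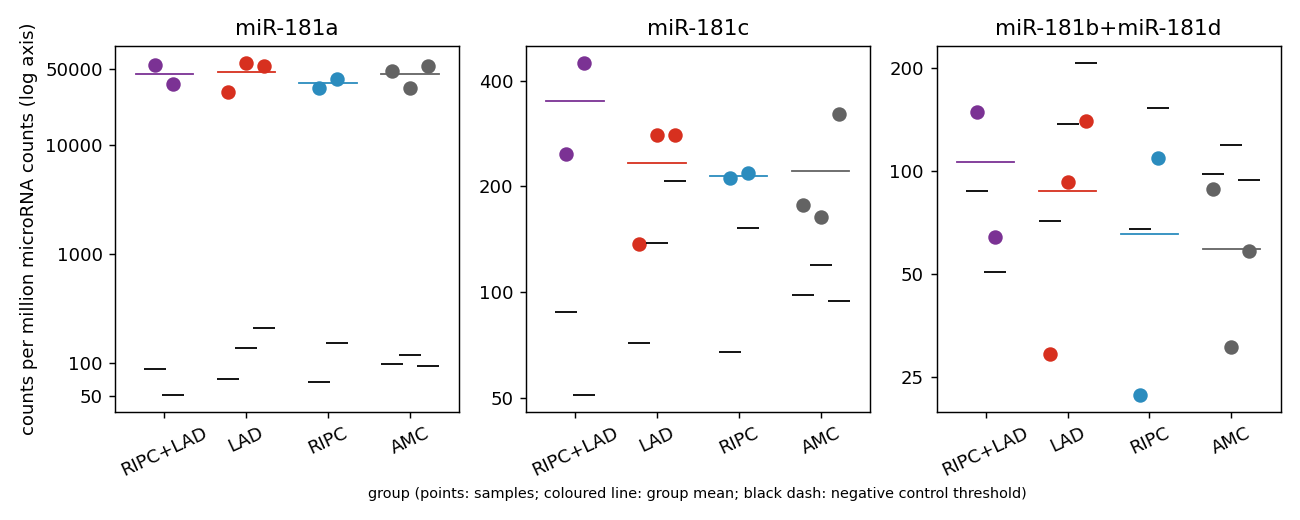
CPM (y axes, log scale, a different range in each panel) of the 3 miR-181 probes, with a point per sample, a coloured line at the group mean and a black dash at each sample's negative control threshold. MiR-181a lies far above background everywhere, miR-181c is highest in RIPC+LAD 2 at 450 CPM, and the joint probe passes its threshold in the 2 RIPC+LAD samples. For that probe RIPC+LAD 2, with the lowest threshold, is at 64.3 CPM. AMC 1, LAD 2, RIPC 2 and LAD 3 do not pass at 88.5, 93.3, 109 and 140 CPM.

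The first comparison asked whether the family differs after the ligation alone. MiR-181a averaged 15.45 ± 0.42 log2 CPM in LAD and 15.44 ± 0.40 in AMC (SD, n = 3 each), after scaling by TMM, which sets library size factors from the bulk of the probes. Its log2 fold change was 0.01 ± 0.29 (SE) with a 95% interval of -0.62 to 0.63, which is 0.651 to 1.55 times the AMC level (edgeR adjusted p = 0.995). MiR-181c was at -0.11 ± 0.43 with an interval of -1.03 to 0.81 (edgeR adjusted p = 0.995). Of the 3 members 0 were called, against a background of 0% of 253 probes. In this contrast edgeR had 14 probes at an unadjusted p under 0.05, the count test DESeq2 called 0 with 4 under 0.05, and the linear model limma on the authors' 146 microRNAs called 0 with 6. LAD 2 and LAD 3 were the shallowest samples, and without both of them miR-181a was at -0.46 and miR-181c at -0.62. This leaves LAD 1 against the 3 AMC samples, which is also the comparison within the high POS_A set, with differences in mean log2 CPM of -0.48 and -0.53.

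The second comparison asked the same of preconditioning alone. MiR-181a averaged 15.11 ± 0.10 log2 CPM in RIPC (SD, n = 2), against 15.44 ± 0.40 for AMC (SD, n = 3), and its log2 fold change was -0.37 ± 0.33 (SE) with an interval of -1.08 to 0.34 (edgeR adjusted p = 0.997). MiR-181c was at -0.14 ± 0.45 with an interval of -1.10 to 0.83 (edgeR adjusted p = 0.997). Again 0 of the 3 were called, with 0% of 253 probes called in all, 3 under an unadjusted 0.05 in edgeR, and 0 called by DESeq2 and limma with 2 and 1 under 0.05. Scaled to the 4 mRNA probes instead of TMM, miR-181a was at 0.53 and miR-181c at 0.83, where the median of all probes moved by 0.89. Without AMC 3 miR-181a was at -0.15 and miR-181c at 0.33, without AMC 2 miR-181a was at -0.58, and within the high POS_A set (1 against 3 samples) the differences were -0.40 and -0.20.

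The third comparison set preconditioned ligated rats against ligated rats. MiR-181a averaged 15.56 ± 0.39 log2 CPM for RIPC+LAD (SD, n = 2), against 15.45 ± 0.42 for LAD (SD, n = 3), with a log2 fold change of 0.10 ± 0.33 (SE) and an interval of -0.60 to 0.80 (edgeR adjusted p = 0.900). MiR-181c averaged 8.59 ± 0.57 log2 CPM for RIPC+LAD (SD, n = 2), against 7.92 ± 0.48 for LAD (SD, n = 3), and its log2 fold change was 0.85 ± 0.46 (SE), or 1.80 times the LAD level with an interval of 0.913 to 3.55 times. Its edgeR p of 0.0852 was adjusted to 0.326. No member was called, with 0% of 253 probes called in all. At an unadjusted p under 0.05 edgeR had 44 probes, DESeq2, which called 0, had 32, and limma, which called 0, had 25. The size of the miR-181c difference depended on single samples, since it was 0.28 without RIPC+LAD 2, 0.45 without LAD 1 and 1.12 without RIPC+LAD 1. Without LAD 2 and LAD 3 miR-181c was at 1.31 and miR-181a at 0.51. Scaled to the positive controls, miR-181c was called at 1.80 and miR-181a was at 1.12 without a call (edgeR adjusted p = 0.0314 and 0.0991), a scaling that moved the median of all probes by 0.96 and called 50 of them. Adjusted for the ligation control miR-181c was at -0.46. Both RIPC+LAD samples lay above all others in that control, so this fit cannot tell it apart from the group. Within the low POS_A set, 2 against 2 samples, miR-181c was at 0.40 and miR-181a at -0.13. Some cell type markers also did not overlap between these 2 and 3 samples, while others did. How many of the 253 probes separate these samples was not counted. The motor neuron microRNA miR-218a was at 2739 and 5341 CPM in RIPC+LAD and 1650 to 2075 CPM in LAD. The 3 oligodendrocyte markers summed to 9823 and 17622 CPM in RIPC+LAD and 19905 to 51430 CPM in LAD, and the 4 measured immune cell markers, 3 of them detected, to 10574 and 13855 CPM in RIPC+LAD and 17097 to 18908 CPM in LAD. MiR-150 made up most of the immune sum, with a median of 15622 CPM over the 10 samples against 196 for miR-142-3p. Its log2 fold change was -0.43 (edgeR adjusted p = 0.414). The 4 neuron markers overlapped, with 65558 and 79025 CPM in RIPC+LAD and 48432 to 101998 CPM in LAD. The vascular, hindbrain position and muscle markers overlapped too. No overlap was seen for the 2 measured erythrocyte markers, with 118 and 136 CPM in RIPC+LAD and 166 to 490 CPM in LAD. The same held for the 5 choroid plexus and ciliated cell markers, with 18414 and 20472 CPM in RIPC+LAD and 20633 to 186780 CPM in LAD. The part of these markers in the miR-181c difference was not tested.

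RIPC+LAD was also compared with AMC and with RIPC. Against AMC, miR-181a was at 0.10 ± 0.33 (SE) with an interval of -0.59 to 0.80 (edgeR adjusted p = 0.935), and miR-181c at 0.74 ± 0.43 with an interval of -0.17 to 1.64 (edgeR adjusted p = 0.620). Of the 3 members 0 were called, with 0% of 253 called in all, 22 under an unadjusted 0.05 in edgeR, 1 called by DESeq2 with 15 under 0.05, and 0 by limma with 14. Without RIPC+LAD 2 miR-181c was at 0.20, and without AMC 3 at 1.20. Against RIPC, miR-181a was at 0.48 ± 0.36 with an interval of -0.29 to 1.24 (edgeR adjusted p = 0.687), and miR-181c at 0.87 ± 0.48 with an interval of -0.15 to 1.90 (edgeR adjusted p = 0.551). Here too 0 members were called, with 0% of 253 called in all, 17 under 0.05 in edgeR and 12 in both DESeq2 and limma, which called 0. Without RIPC+LAD 2 miR-181c was at 0.35 and miR-181a at 0.71, and without RIPC+LAD 1 they were at 1.19 and 0.13. The comparisons with RIPC+LAD share those 2 samples, so their miR-181c values are not separate observations.

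The interaction asked whether preconditioning shifts the family differently with the ligation than without it. It was 0.47 ± 0.47 (SE) for miR-181a, with an interval of -0.52 to 1.46 (edgeR adjusted p = 0.735), and 0.98 ± 0.65 for miR-181c, with an interval of -0.39 to 2.36 (edgeR adjusted p = 0.526). No member was called, with 0% of 253 called in all, 31 under an unadjusted 0.05 in edgeR, and 0 called by DESeq2 and limma with 17 and 13 under 0.05. Since the intervals for RIPC+LAD against LAD reached 1.83 log2 units for miR-181c and 0.80 for miR-181a, a missed threshold does not show equal levels.

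**Figure D3:**
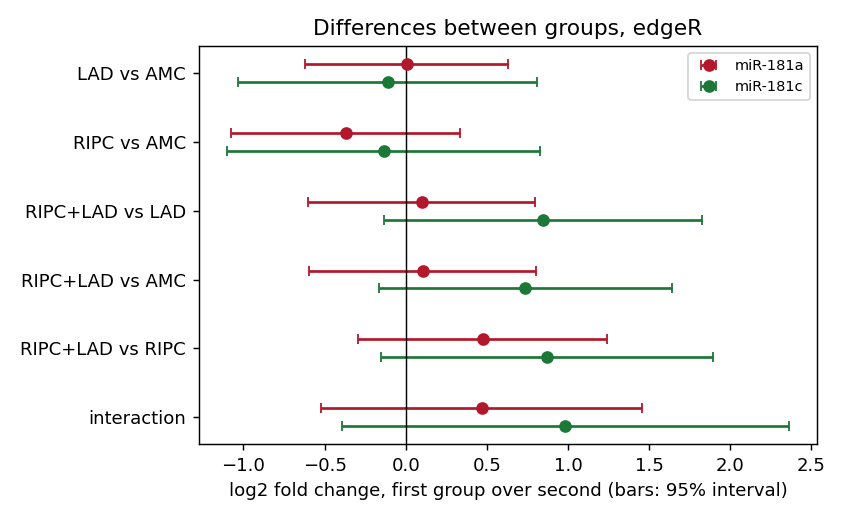
Log2 fold changes of miR-181a and miR-181c (x axis, first group over second, TMM-scaled counts) in the 6 contrasts (y axis), with 95% intervals from the edgeR fit over 10 samples. Every interval crosses 0, and miR-181c is highest in the contrasts that hold RIPC+LAD, at 0.74 to 0.98.

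Summed over the 3 probes, the family took 5.48% and 3.75% of microRNA counts in RIPC+LAD, 3.14%, 5.81% and 5.35% in LAD, 3.41% and 4.09% in RIPC, and 4.86%, 3.40% and 5.36% in AMC. MiR-181a made up 98.6% to 99.5% of the sum in each sample. By an exact permutation test (two-sided), the log2 CPM of the sum differed by -0.02 between RIPC+LAD and LAD (p = 1), by 0.02 between RIPC+LAD and AMC (p = 0.9), by 0.05 between LAD and AMC (p = 0.8) and by -0.26 between RIPC and AMC (p = 0.5). The smallest p that this permutation test allows for 2 or 3 against 3 samples is 0.1, and 0.333 for RIPC+LAD against RIPC, where the difference was 0.28 (p = 0.667).

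The balance between the members was also compared within samples, a measure chosen after the values were seen. The miR-181c count was 0.456% and 1.22% of the miR-181a count in RIPC+LAD, 0.438%, 0.485% and 0.529% in LAD, 0.623% and 0.538% in RIPC, and 0.367%, 0.483% and 0.603% in AMC. RIPC+LAD 2 stood apart at 1.22%, and RIPC+LAD 1 lay within the range of the other groups. The log2 ratio differed by 0.63 between RIPC+LAD and LAD (exact permutation p = 0.3, two-sided, n = 2 and 3), and by -0.08 without RIPC+LAD 2. RIPC+LAD 2 was also the sample with the highest ligation control (172% of POS_A) and with the most probes above the threshold, 270 of 420. The part of these in its miR-181c count was not tested.

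MiR-181a varied between animals of 1 group about as much as other microRNAs. Its within-group SD of log2 CPM was 0.37, rank 75 of 141 probes that were above threshold in all samples (median 0.37), and rank 30 of the 50 most abundant ones (median 0.32). Over all 10 samples, groups ignored, its SD was 0.34. MiR-181c had a within-group SD of 0.50, rank 115 of 141.

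On the plain CPM scale the 3 samples with the lowest miR-181a were also the 3 with most choroid plexus and ciliated cell microRNAs. After TMM scaling this held for LAD 1 at 14.97 and AMC 2 at 15.04 log2 CPM, while RIPC 2, with 2.48% of the list, was at 15.04 and RIPC 1 at 15.18. The choroid plexus lies inside the ventricle next to the dorsal vagal complex, and miR-204 is its best known abundant microRNA. The 5 measured markers of the list (miR-204, miR-448, miR-34b, miR-34c and miR-449a), of which miR-34b was above background in 5 samples, miR-448 in 9 and the others in 10, together took 18.7% of microRNA counts in LAD 1, 10.01% in RIPC 1 and 5.87% in AMC 2, where miR-181a was at 31213, 33879 and 33794 CPM. By group the list ranged over 1.84% to 2.05% in RIPC+LAD, 2.06% to 18.7% in LAD, 2.48% to 10.01% in RIPC and 1.80% to 5.87% in AMC. With the list's counts taken out of the total, miR-181a was at 38382 CPM in LAD 1, 37645.5 in RIPC 1 and 35900.4 in AMC 2. On this scale, without a TMM factor, RIPC 2 had 41582 CPM and the other LAD and AMC samples 50002 to 58941 CPM. RIPC+LAD 2 had little of the list and a low miR-181a of 37031 CPM, so the pair did not move together in every sample. The part of the choroid microRNAs in the miR-181a values was not tested. With miR-204 left out of the table and the totals, an alternative added after seeing the data, the miR-181a log2 fold change was 0.0024 for LAD against AMC, -0.33 for RIPC against AMC and 0.14 for RIPC+LAD against LAD.

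**Figure D4:**
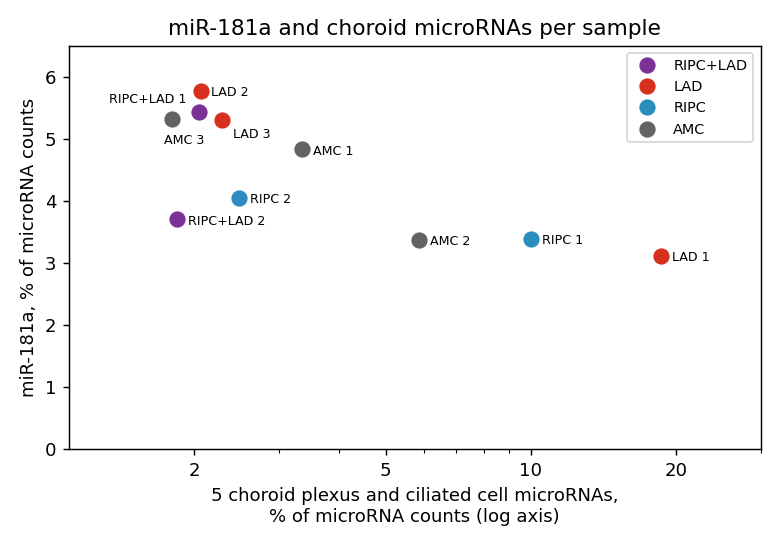
MiR-181a as a percent of microRNA counts (y axis) against the summed percent of 5 choroid plexus and ciliated cell microRNAs (x axis, log scale), with a point per sample coloured by group. LAD 1, RIPC 1 and AMC 2 lie at the right with 3.12%, 3.39% and 3.38% miR-181a, and RIPC+LAD 2 is low in both.

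MicroRNA profiles most like miR-181a over the 10 samples were sought among 139 other probes above threshold in every sample. The 3 with the highest Pearson r of log2 CPM were miR-210, the microRNA best known for its induction by hypoxia (r = 0.90, Spearman rho = 0.90), miR-345-5p (r = 0.89, rho = 0.94) and the neuron microRNA miR-124 (r = 0.86, rho = 0.84), against a median r of 0.10 over all 139. MiR-124 was at 77104 and 63038 CPM in RIPC+LAD, 46927, 100086 and 65859 in LAD, 54714 and 64331 in RIPC, and 56172, 46565.5 and 99529 in AMC, so LAD 1 and AMC 2 were lowest and LAD 2 and AMC 3 highest. MiR-210 was at 434 and 343 CPM in RIPC+LAD, 137, 793 and 456 in LAD, 133 and 218 in RIPC, and 277, 163 and 457 in AMC. Points of these correlations share library, depth and scaling, and they are a description of the most alike of many.

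MiR-181c was most alike miR-127, of the imprinted Dlk1-Dio3 cluster (r = 0.90, rho = 0.95), the neuron-enriched miR-129 (r = 0.86, rho = 0.78) and miR-330 (r = 0.84, rho = 0.79), with a median r of 0.18 over the 139 probes. MiR-127 was at 4635 and 6660 CPM in RIPC+LAD, 1368, 4733 and 3476 in LAD, 2808 and 3643 in RIPC, and 3320, 2836 and 5787 in AMC. As with miR-181c, RIPC+LAD 2 and AMC 3 were highest and LAD 1 lowest. MiR-181a and miR-181c themselves had r = 0.54 and rho = 0.70, above the median r of 0.10 and 0.18 over the 139 probes. The 3 most alike of each were the highest of 139, so their higher r sets no family member apart. Where 0.54 would rank among the 139 was not counted.

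**Figure D5:**
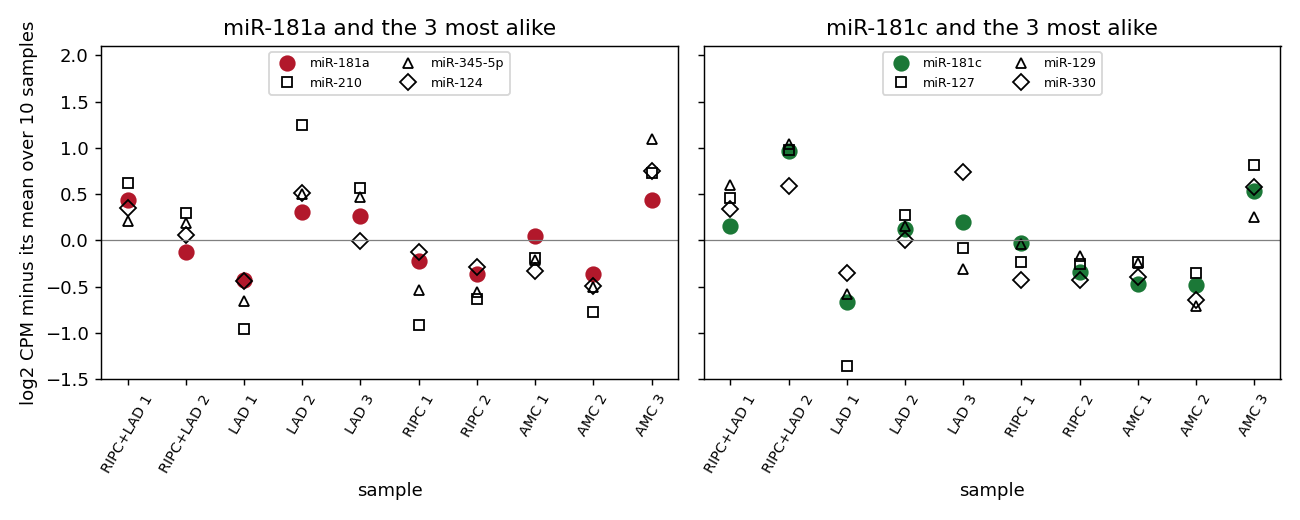
Log2 CPM minus its mean over the 10 samples (y axis) by sample (x axis) for miR-181a (left) and miR-181c (right), each with its 3 most alike microRNAs by Pearson r. LAD 1 is low in both panels, AMC 3 is high in both, and RIPC+LAD 2 is high for miR-181c and its companions.

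Other microRNAs tied to neurons, to immune cells and to ischemia were read from the same fit, and none of the detected ones was called in any contrast. For RIPC+LAD against LAD, 7 of 9 detected neuron microRNAs had higher values, as had 130 of all 253 probes. Their median log2 fold change was 0.50, against 0.02 over all 253. Among the 9, miR-129, one of those most alike miR-181c, was at 1.11 ± 0.36 (SE, edgeR adjusted p = 0.114). MiR-124, one of those most alike miR-181a, was at 0.14 ± 0.38 (SE, edgeR adjusted p = 0.883). For LAD against AMC, 2 of these 9 were higher and 7 lower (median -0.15), with 121 of all 253 probes higher. Immune microRNAs, 6 detected, had a median of -0.19 for RIPC+LAD against LAD and -0.08 for LAD against AMC. Of 7 detected ischemia microRNAs, 4 had higher values for RIPC+LAD against LAD (median 0.01) and 3 for LAD against AMC (median -0.0039), near the shares of 130 and 121 of all 253 probes. Within that list miR-210 was at -0.90 ± 0.60 (SE) for RIPC against AMC and at 1.34 ± 0.64 for RIPC+LAD against RIPC (edgeR adjusted p = 0.997 and 0.538).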

How the data were processed

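RNA of each punch was run by the authors on the rat microRNA panel of the NanoString nCounter, where microRNAs are tagged by ligation and read by fluorescent barcode. The deposited file holds raw barcode counts, not normalized, whose lowest value is 1. A second deposited table, of 146 microRNAs and 4 mRNAs, is on the log2 scale, and its values equalled log2 counts per 100000 microRNA counts within 5e-09 in the 148 rows matched by name, and 2 of the 3 members are among them. The sources used here do not name the counting software. Groups came from the treatment label.

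Probes entered the tests where 2 or more samples exceeded the negative control mean by over 2 SD (8 controls per sample), as 253 of 420 did. The test was edgeR's quasi-likelihood F test (edgeR 4.0.16, R 4.3.3, TMM library factors), two-sided, with all 10 samples in 1 fit and Benjamini-Hochberg adjustment over all tested probes within each contrast (threshold 0.05). Each SE was derived from the size of the log2 fold change and its F statistic, as their quotient after taking the root of F, and intervals use it. Log2 CPM used a prior count of 2. Each animal has its own number, so p-values measure the spread between animals, and no 2 samples agreed within sampling noise. The tests were tested on simulated data. Sequences were matched by name to RefSeq tables of GRCr8, where 4 mature entries matched a probe.

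Alternatives were DESeq2 1.42.0, limma 3.58.1 on the authors' log2 table, limma-voom with the animal number prefix as a random block, other scalings, background subtraction, no filter, control probes as covariates, only the groups compared, and each sample left out. The voom fit estimated a correlation of -0.227 within a prefix. It thus did not treat samples with a common prefix as more alike, and its calls are read with that limit. Scaling to the mRNA probes, leaving out miR-204, leaving out LAD 2 with LAD 3, and the ratio of miR-181c to miR-181a were added after seeing the data. Named microRNAs were every member, the 3 probes most correlated with each member above threshold in all samples, and lists of neuron, immune and ischemia microRNAs by counts and medians, with miR-124, miR-129 and miR-210 named from them for their likeness to a member. Cell type markers were fixed by name. Members and lists were chosen with earlier results of these data known.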

Additional observations from a re-analysis of the deposited data

How the results depend on the processing

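Over 286 alternative values of miR-181a and miR-181c, 1 passed the threshold, miR-181c for RIPC+LAD against LAD with positive control scaling. The joint probe was part of the same refits, except for limma on the authors' table, which lacks it. Its alternative values are not read because it lay at background. MiR-181a kept its sign in 120 alternatives and turned in 23, and miR-181c in 129 and 14. Positive control scaling moved the median of all probes by 0.96 for RIPC+LAD against LAD, -0.45 for LAD against AMC, 0.48 for RIPC+LAD against AMC and 0.49 against RIPC, and mRNA scaling moved it by 0.89 for RIPC against AMC. The cause of a turned sign was not tested. Depth limits miR-181c, with 8 to 42 counts per sample, and the joint probe, which was not measured above background in 8 of 10 samples.

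For RIPC+LAD against LAD, positive control scaling called 50 microRNAs, voom with the prefix block 1, and leaving out LAD 2 and LAD 3 called 3. For RIPC+LAD against AMC DESeq2 called 1, and leaving out a sample gave 0 to 1. For RIPC+LAD against RIPC, using only those groups called 8. For the interaction, the voom prefix block called 1, mRNA scaling 2, leaving out LAD 2 and LAD 3 also 2, and leaving out a sample gave 0 to 1.

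MiR-181a for LAD against AMC was at -0.54 with positive control scaling, -0.083 with no filter, -0.011 with background subtracted, -0.34 with the POS_A set as a covariate, -0.46 without LAD 2 and LAD 3, and -0.18 to 0.23 with each sample left out. For RIPC against AMC it was at 0.53 with mRNA scaling. For RIPC+LAD against LAD it was at -0.065 with scaling to the top 100 microRNAs, -0.050 without TMM, -0.028 in limma, -0.026 with the POS_A set, -0.23 with the ligation control as a covariate, and -0.28 to 0.31 with each sample left out. For RIPC+LAD against AMC it was at -0.37 with the POS_A set, -0.11 with the ligation control, and -0.26 to 0.33 with each sample left out. With mRNA scaling it was at -0.21 for RIPC+LAD against RIPC and -0.36 for the interaction.

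MiR-181c for LAD against AMC was at 0.040 with the top 100, 0.071 in limma, 0.28 with the ligation control, 0.14 with mRNA scaling and -0.29 to 0.34 with each sample left out. For RIPC against AMC it was at 0.030 in limma, 0.83 with mRNA scaling and -0.35 to 0.33 with each sample left out. Adjusted for the ligation control it was at -0.46 for RIPC+LAD against LAD, -0.18 against AMC, -0.065 against RIPC and -0.34 for the interaction.

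The summed family for RIPC+LAD against LAD was at 0.12 with TMM. With each sample left out it was at -0.15 to 0.32 for LAD against AMC, -0.30 to 0.25 for RIPC+LAD against LAD and -0.25 to 0.30 against AMC. The log2 ratio of miR-181c to miR-181a, with each sample left out, was at -0.16 to 0.20 for LAD against AMC, -0.082 to 1.33 for RIPC+LAD against LAD, -0.057 to 1.36 against AMC and -0.35 to 1.07 against RIPC, and the low ends of the last 3 ranges came without RIPC+LAD 2. Ratios between the members of a gene pair or the arms of a hairpin were planned and not run, since the joint probe lay at background and no 3p arm had a probe. No paired analysis was possible because the groups share no animal and the labels give no replicate numbers across groups.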

Other observations

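The 4 mRNA probes of the panel give a second denominator from the same reaction. MiR-181a counts were 2.93 and 2.18 times the geometric mean of these probes in RIPC+LAD, 3.06, 2.61 and 1.12 times in LAD, 2.85 and 3.05 times in RIPC, and 2.78, 1.29 and 2.06 times in AMC. MiR-181c counts per 100 of the same mean were 1.33 and 2.65 in RIPC+LAD, 1.34, 1.27 and 0.595 in LAD, 1.77 and 1.64 in RIPC, and 1.02, 0.624 and 1.24 in AMC. RIPC+LAD 2 was the highest sample for miR-181c on either denominator. The mean of the mRNA probes itself was 1499 and 1585 counts in RIPC+LAD, 949 to 1346 in LAD, 973 and 1071 in RIPC, and 1572 to 2662 in AMC, so this denominator shifts every probe of a sample alike, and for RIPC against AMC it moved the median of all probes by 0.89.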
